A study of Rattus norvegicus with 8 samples.

Results

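Receptors for the constant part of antibodies and inhibitory receptors of myeloid cells were measured in immune cells enriched from rat liver. The 8 genes were chosen by name, with earlier results of these data known. They are Fcgr1a, Fcgr2a, Fcgr2b, Fcgr3a and Fcer1g of the Fc receptor system, and Cd300a, Lilrb4 and Sirpa of the inhibitory receptors. They are 8 of the 32754 genes in the files, and each was found under 1 identifier. Counts of their calls, set below against the share over all genes, are therefore not those of an unselected set. Immune cells of 4 male Han Wistar rats were run on the Chromium system, in which each captured transcript carries a unique molecular identifier (UMI). NC1 and NC2, the negative controls, had been fed CSAA, a diet of defined amino acids with enough choline. PC1 and PC2, the positive controls, had been fed CDAA, the same kind of diet lacking choline. From every rat a fresh sample and a sample kept for 3 weeks after cryopreservation in DMSO were sequenced, so each combination of diet and preservation has 2 libraries. No age of the animals was given in the sources used here. The choline-deficient diet is a rodent model of fatty liver with inflammation, and each library holds the cells of 1 animal. Preserved cells were also processed on a later day than fresh cells, so preservation and day of processing cannot be told apart.

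Fc gamma receptors bind IgG on immune complexes and coated particles. Fcgr1a is the high-affinity receptor, and Fcgr2a and Fcgr3a encode further activating receptors. The activating receptors signal through the gamma chain encoded by Fcer1g, which carries an immunoreceptor tyrosine-based activation motif and recruits the kinase Syk. Fcgr2b is the inhibitory member: its cytoplasmic motif recruits the phosphatase SHIP-1, and it is the Fc gamma receptor of B cells. Cd300a and Lilrb4 are inhibitory receptors whose tyrosine motifs recruit the phosphatases SHP-1 and SHP-2. Sirpa binds the surface protein CD47 and restrains phagocytosis. In liver, Kupffer cells (resident macrophages) and infiltrating monocytes carry many of these receptors and clear immune complexes from the blood.

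Names in this family are not uniform in rat. RefSeq lists Fcgr3 and Fcgr3a as older names of the gene called Fcgr2a in the files, and Fcgr4 and CD16-2 as other names of the gene called Fcgr3a. The names of the files are used here, where Fcgr2a is ENSRNOG00000046663, Fcgr2b ENSRNOG00000046452 and Fcgr3a ENSRNOG00000024382. Fcgr2a, Fcgr2b and Fcgr3a are close relatives of each other, and Cd300a and Lilrb4 belong to families of similar genes, so reads of near-identical stretches may be lost or shared, and levels of these genes are uncertain to that extent.

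RefSeq promoter sequences (GRCr8 build) were found for 4 of the 8 genes, namely Fcgr2a, Fcgr3a, Cd300a and Lilrb4. Those of Fcgr3a and Lilrb4 are shown because these genes differed between the diets in opposite directions. They did so in fresh myeloid cells gated by Clec4a3 or Clec4f, as described below. That of Cd300a is shown because it differed most after preservation. Each is the 250 bases upstream of the annotated start, 5′ to 3′ on the strand of the gene. Capitals mark the letters GAGGAA or the reverse TTCCTC, the core that PU.1, a transcription factor of myeloid cells, prefers.
Fcgr3a, chr13:85782386-85782635 (plus strand): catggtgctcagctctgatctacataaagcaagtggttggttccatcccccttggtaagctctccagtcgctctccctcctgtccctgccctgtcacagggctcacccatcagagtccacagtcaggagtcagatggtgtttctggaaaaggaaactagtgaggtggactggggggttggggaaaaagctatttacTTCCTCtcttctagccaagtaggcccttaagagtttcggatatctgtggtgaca
Lilrb4, chr1:78853253-78853502 (minus strand): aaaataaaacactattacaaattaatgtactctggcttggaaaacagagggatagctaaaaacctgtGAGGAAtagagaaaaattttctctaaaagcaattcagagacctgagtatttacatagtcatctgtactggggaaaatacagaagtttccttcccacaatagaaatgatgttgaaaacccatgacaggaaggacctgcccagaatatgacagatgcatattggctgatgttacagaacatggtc
Cd300a, chr10:100428576-100428825 (plus strand): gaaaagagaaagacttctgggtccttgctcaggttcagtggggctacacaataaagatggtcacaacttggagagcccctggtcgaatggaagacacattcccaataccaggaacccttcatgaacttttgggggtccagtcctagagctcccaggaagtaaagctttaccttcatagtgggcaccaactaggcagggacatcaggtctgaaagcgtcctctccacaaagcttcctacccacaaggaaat
The core was found 1 time in the window of Fcgr3a, 54 bases upstream of the start on the opposite strand, and 1 time in that of Lilrb4, 183 bases upstream on the strand of the gene. These letters are not in the window of Cd300a. On either strand the core lies in 7812 of 33469 RefSeq promoters of this length (23.3%).

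Libraries held 18338700 to 26471843 UMIs. Barcodes with at least 500 UMIs were analysed, 3673 to 4771 per library and 34053 in all, with medians of 3339 to 4309 UMIs. Any pair of libraries had 13 to 36 of these barcodes in common, at most 0.809% of the smaller library. Levels are UMIs of a gene per 1000000 UMIs of all genes in the same set of barcodes (CPM). The 3′ kit counts transcript ends, so CPM of different genes was not divided by length.

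Lineages were gated by 7 genes: Clec4f, a lectin of Kupffer cells; Vcan, high in classical monocytes; Clec4a3, a lectin of myeloid cells; Siglech, of plasmacytoid dendritic cells; Cd79a, of B cells; Cd3e, of T cells; and Ncr1, of natural killer (NK) cells. A barcode entered a gate with at least 1 UMI of its gene and none of the genes of other lineages, the 3 myeloid genes counting as 1 lineage. Gates held between 35 and 640 barcodes per library. Because 1 UMI of a gate gene also lies in many barcodes of other lineages, a second gate was added after these counts were seen. It assigns a barcode to the gate whose list of up to 8 markers is most in excess and is called a list gate below. The excess is taken over the average of the same library, so the limit shifts with the mix of cells in that library. Median UMIs per barcode were 5549 to 15306 in the Clec4f, 6784 to 9491 in the Siglech and 2435 to 3300 in the Cd79a list gate. Over all barcodes they were 3339 to 4309. The part of these shifts in the diet values was not tested. The single-gene gates took 37.6 to 41.7% of the barcodes of a library and the list gates 57.3 to 68.5%, while 12.8 to 15.7% scored just below the limit of the list gates.

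Markers matched the gates to different degrees. The summed level of 8 Kupffer markers was 2604 to 10431 CPM in the Clec4f gate and 11251 to 20861 CPM in the Clec4f list gate, against 238 to 957 CPM in the Cd3e gate. Lyz2, a lysozyme of myeloid cells, had a mean of 5092 CPM in the Cd3e gate and 2840.0 CPM in the Cd3e list gate, compared with 13185 CPM in the Clec4a3 list gate. The T cell gene Cd3g had a mean of 625 CPM in the Cd3e gate and 962 CPM in its list gate. Cd3g and the Kupffer markers are on the lists that set the list gates, so their levels there follow in part from the selection. Lyz2 is on none of these lists. All markers found were detected in their own gate except Ace, of the Clec4a3 list, and Vpreb3, of the Cd79a list, which were at 0 in both kinds of gate. The Vcan list gate also held neutrophil markers, of which S100a8 and S100a9 are also on the Vcan list. The neutrophil markers summed to 2927 to 6623 CPM there, against 111 to 306 CPM in the Clec4a3 list gate. A level in a lymphoid gate is therefore given beside the level in empty droplets, the barcodes with 1 to 100 UMIs, which shows the free RNA of each library.

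**Figure D1:**
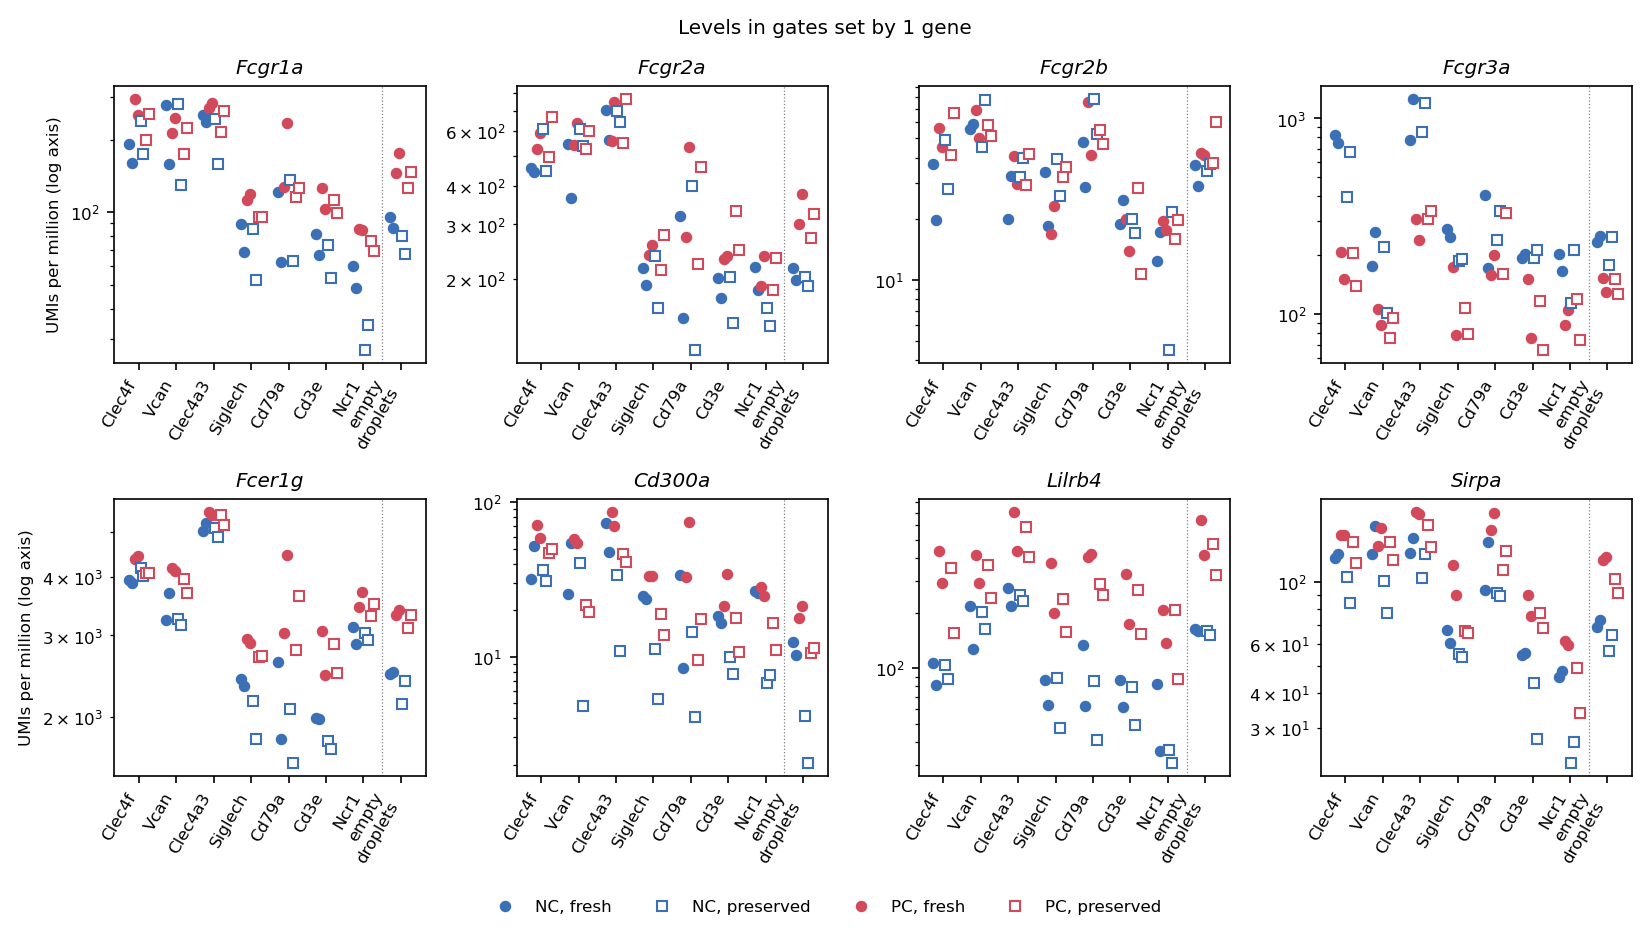
Levels of the 8 receptor genes in CPM on a log axis, in the 7 gates set by 1 gene and, right of the dotted line, in empty droplets; each point is 1 library, blue for NC and red for PC, filled for fresh and open for preserved. Every gene had its highest mean level in the Clec4a3 or the Vcan gate, and the Cd3e gate had median ratios to empty droplets below 1 for all genes but Cd300a.

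Levels by gate are a description, because the gate genes and the UMI limit chose the barcodes. All 8 genes had their highest mean level in a myeloid gate, and 6 of them in the Clec4a3 gate of both kinds. Fcgr1a had a mean of 280.4 ± 40.2 CPM (SD, n = 8 libraries) in the Clec4a3 list gate, 271 ± 62.0 CPM in the Clec4f list gate and 204 ± 27.0 CPM in the Vcan list gate. The first pair did not differ beyond its spread. The lymphoid and Siglech list gates followed at means of 50.2 to 54.6 CPM, with no order among them beyond their spread, below the 67.3 to 176 CPM in empty droplets.

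Fcgr2a had 775 ± 92.8 CPM in the Clec4f list gate, 675 ± 98.8 CPM in the Clec4a3 list gate and 562 ± 64.6 CPM in the Vcan list gate. The Ncr1 list gate came next with 157 ± 24.7 CPM, above the Siglech list gate in 8 of 8 libraries and above the Cd3e list gate in 7 of 8. In that gate the level was 0.978 to 2.73 times that in the Cd3e list gate. The Siglech, Cd3e and Cd79a list gates, with means of 92.6 to 95.9 CPM, did not differ beyond their spread. Empty droplets held 190.3 to 377 CPM of Fcgr2a.

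Fcgr3a was concentrated in the Clec4a3 and Clec4f gates and low in the Vcan gate. In the Clec4a3 list gate it was 705 and 834 in NC1 and NC2 and 307 and 182 in PC1 and PC2 (CPM, fresh), and 654 and 860.4 in NC1 and NC2 and 311 and 303 in PC1 and PC2 (preserved). The NC libraries lay above the PC libraries in this gate. The Vcan list gate held 39.8 to 112 CPM, above the Cd3e list gate in 3 of 8 libraries, so its mean of 76.0 CPM was not set apart from the 77.1 CPM of the Cd3e list gate. In the Ncr1 list gate Fcgr3a had 103 ± 24.7 CPM, above the Cd3e list gate in 8 of 8 libraries, with a ratio of 1.22 to 1.95. Empty droplets held more than the Ncr1 list gate, 127 to 251 CPM.

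Fcer1g, the shared signalling chain, had the highest CPM of the 8 genes in every gate. Its mean was 5261 ± 419 CPM in the Clec4a3 list gate, 3739 ± 388 in the Clec4f list gate and 3358 ± 290.1 in the Vcan list gate. The Ncr1 list gate had 3067 ± 377 CPM, 1.91 to 2.95 times the level of the Cd3e list gate and above it in 8 of 8 libraries. In NK cells this chain pairs with Fc and natural cytotoxicity receptors, Ncr1 among them. The Cd3e and Cd79a list gates had 886 to 1774 and 888 to 1825 CPM, below the 2132 to 3411 CPM of empty droplets.

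Fcgr2b, the inhibitory Fc gamma receptor, was low and differently distributed. In the Clec4f list gate it was 92.5 and 111 in NC1 and NC2 and 51.2 and 54.1 in PC1 and PC2 (CPM, fresh). The Cd79a list gate held 64.6 ± 7.23 CPM and the Vcan list gate 65.7 ± 7.30 CPM, which did not differ beyond their spread, and both lay above the Clec4a3 list gate with 36.2 ± 3.87 CPM. Fcgr2b was the only member besides Sirpa whose level in the Cd79a list gate exceeded that in the Cd3e list gate in 8 of 8 libraries, by 31.9 to 65.4 CPM. Empty droplets held 28.9 to 60.5 CPM of Fcgr2b. The lowest mean, 13.3 ± 2.09 CPM, was that of the Ncr1 list gate. Across 56 gate and library profiles, the level of Fcgr2b in the single-gene gates had a Pearson r of 0.11 with Fcgr3a and 0.64 with Sirpa, while Fcgr1a and Fcgr2a had 0.93. These profiles share libraries and free RNA and are no independent points.

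Among the inhibitory myeloid receptors, Lilrb4 had the steepest order within the myeloid gates: 418 ± 192 CPM in the Clec4a3 list gate, 207 ± 83.1 CPM in the Vcan list gate and 139 ± 106 CPM in the Clec4f list gate. The first lay above the second in 8 of 8 libraries, and the large SDs hold the difference between the diets. The 4 other list gates, with means of 70.3 to 77.5 CPM, did not differ beyond their spread. Sirpa had 155 ± 34.2 CPM in the Clec4a3, 129 ± 42.9 CPM in the Clec4f and 117 ± 19.0 CPM in the Vcan list gate. Neighbours in this order lay within their spread, while the Clec4a3 list gate was above the Vcan list gate in 8 of 8 libraries. In the Cd79a list gate Sirpa had 97.0 ± 13.4 CPM, against 33.8 ± 16.2 CPM in the Cd3e list gate and 56.7 to 123 CPM in empty droplets. Cd300a had 55.2 ± 21.6 CPM in the Clec4a3, 50.2 ± 16.7 CPM in the Clec4f, 32.7 ± 12.958 CPM in the Vcan and 15.1 ± 8.16 CPM in the Ncr1 list gate.

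**Figure D2:**
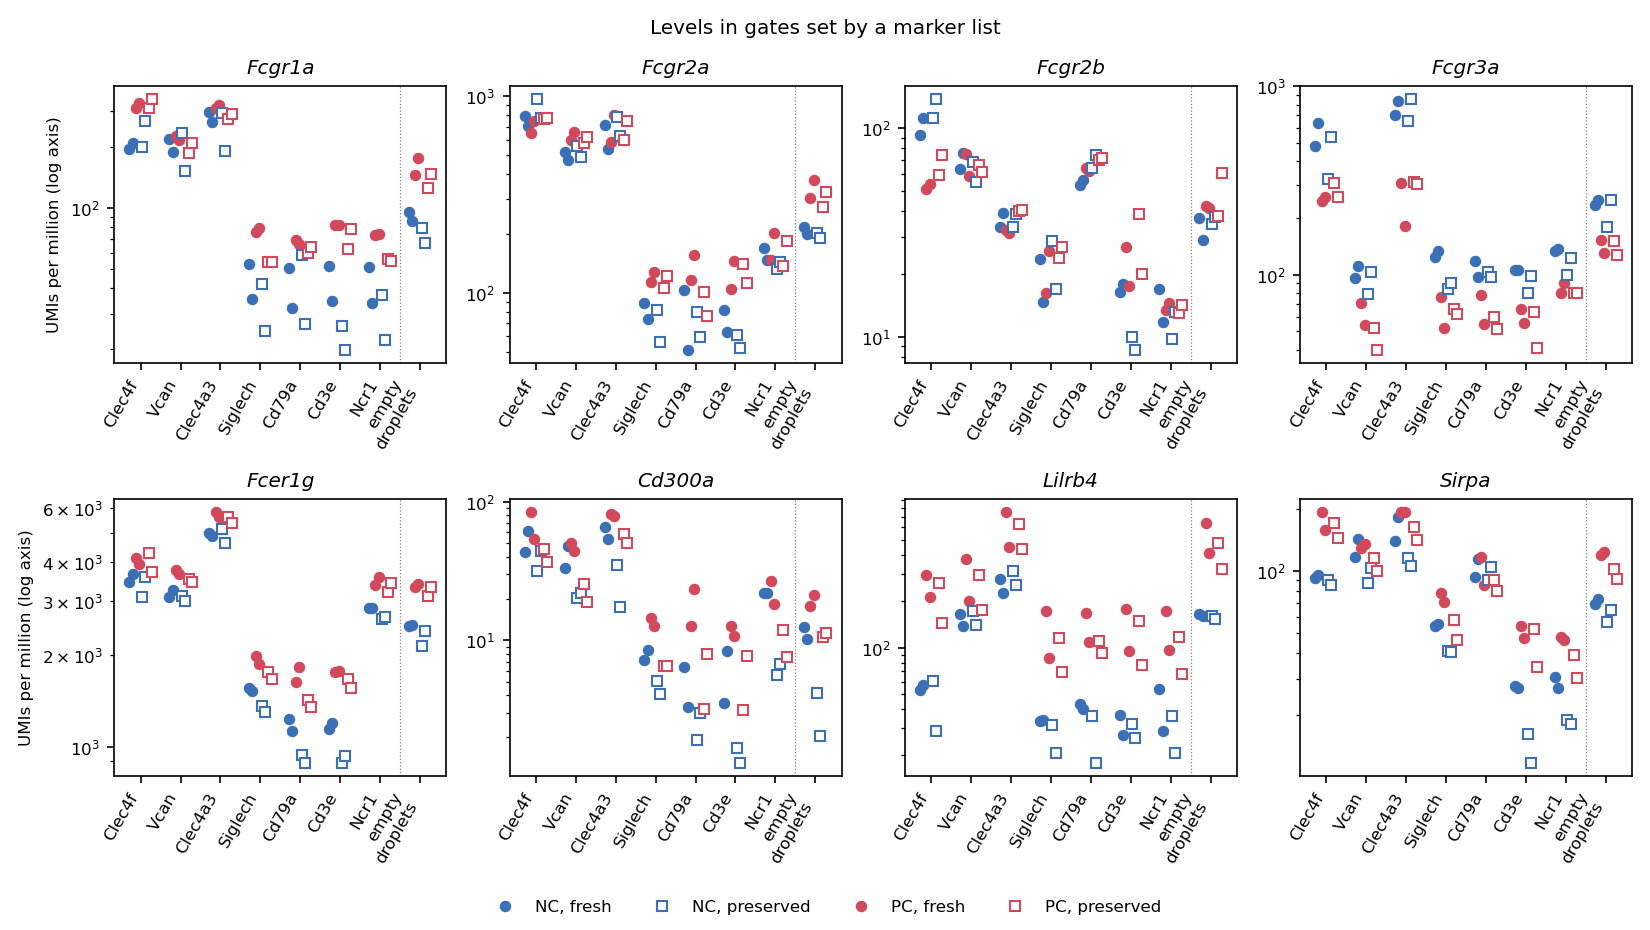
The same levels as in the gates set by 1 gene, for the 7 gates set by a marker list; axes, colours and symbols as before. Fcgr2b stands highest in the Clec4f, Vcan and Cd79a list gates, and the NC libraries of Fcgr3a lie above the PC libraries in the Clec4a3 list gate.

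Empty droplets gave the level of free RNA in each library. Lilrb4 was higher in empty droplets than in all barcodes in 8 of 8 libraries: 164 and 159 in NC1 and NC2 and 644 and 413 in PC1 and PC2 (CPM, fresh), with all barcodes at 0.377 to 0.621 times these levels. Cd300a was the opposite case, at 1.86 to 4.22 times the level of empty droplets. The other 6 genes had median ratios between 0.905 and 1.16. In the Cd3e list gate, median ratios to empty droplets ran from 0.226 for Lilrb4 to 0.569 for Cd300a. The level of Lilrb4 in the single-gene Cd3e gate, 86.6 and 62.0 in NC1 and NC2 and 327 and 175 in PC1 and PC2 (CPM, fresh), moved between libraries with that in empty droplets.

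**Figure D3:**
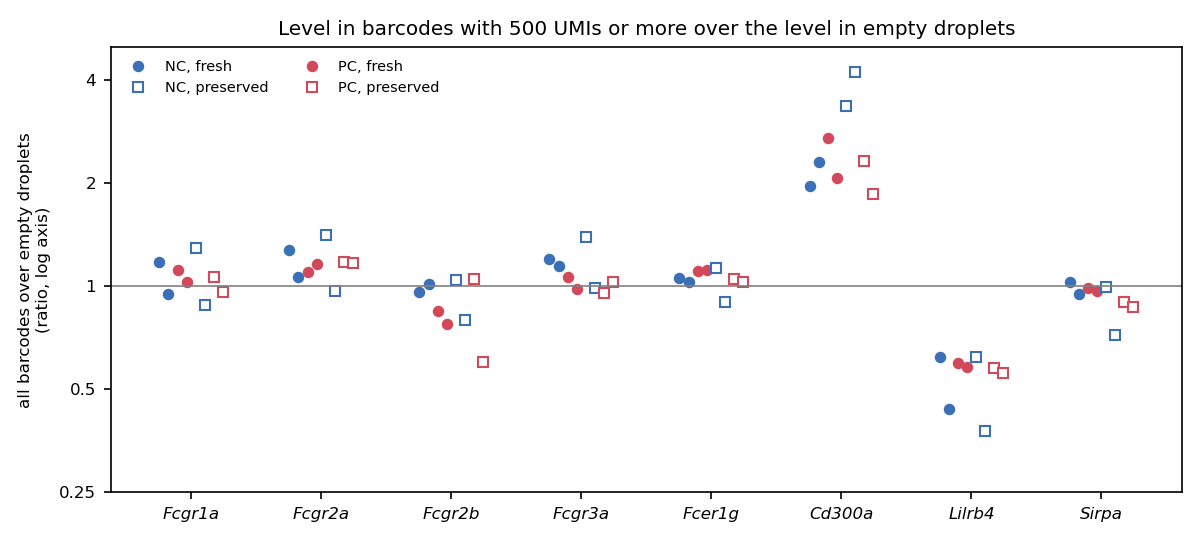
Level of each gene in all barcodes with at least 500 UMIs divided by its level in empty droplets, on a log axis, for each of the 8 libraries; the line marks a ratio of 1. All points of Lilrb4 lie below the line and all points of Cd300a above it.

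The genes most like each receptor were sought over the same 56 profiles on log2(CPM + 5), among 2839 genes with a mean of at least 50 CPM. Cd68, a lysosomal protein of macrophages, came first for Fcgr1a (r = 0.96) and Fcgr2a (r = 0.94), followed by Cd302 for both and then by Lst1 and Ethe1. Fcer1g was most like Bcl2a1 (r = 0.91), Lrrc25 and LOC691141. Fcgr3a was most like Ing2 (r = 0.84), RT1-T24-3 and Pla2g2d, and Fcgr2b like Mgst2 (r = 0.75), Milr1 and Plac8. These 2 receptors had the likeness that depended most on the gates. Over the profiles of the list gates, r was 0.30 for Fcgr2b with Milr1 and with Plac8 and 0.66 with Mgst2, and for Fcgr3a it was 0.65 with Ing2 and 0.86 with Pla2g2d, which turns their order. For the other 6 receptors the genes named had r of 0.82 to 0.97 over the list gates. Among the inhibitory receptors, Lilrb4 was most like Chi3l1 (r = 0.90), Sod2 and Gngt2, Sirpa like Dok3 (r = 0.89), Plxnb2 and Prkcd, and Cd300a like Lipa (r = 0.80), Gngt2 and Plxnb2.

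After DMSO cryopreservation, Cd300a was lower than in fresh cells, Sirpa and Fcgr1a were slightly lower, and the other members did not pass the test over all barcodes. The comparison asks how far preservation alters levels in cells of the same animal. Over all barcodes, fewer cells of a type and less RNA per cell cannot be told apart. Log2 fold changes are given ± SE. Cd300a in all barcodes was 24.6 and 23.6 in NC1 and NC2 and 48.2 and 44.2 in PC1 and PC2 in fresh cells, and 14.0 and 8.61 in NC1 and NC2 and 24.6 and 21.0 in PC1 and PC2 in preserved cells (CPM). It was lower after preservation in 4 of 4 animals, at 0.365 to 0.569 of the fresh level, with a log2 fold change of -1.01 ± 0.0977 (edgeR, adjusted p = 0.000983). Sirpa was 71.2 and 69.9 in NC1 and NC2 and 118 and 119 in PC1 and PC2 fresh, and 56.2 and 46.4 in NC1 and NC2 and 92.4 and 79.6 in PC1 and PC2 preserved. It was lower in 4 of 4 animals (log2 fold change -0.42 ± 0.0661, edgeR, adjusted p = 0.00657). Fcgr1a was also lower in 4 of 4 animals, by a smaller amount (log2 fold change -0.26 ± 0.0621, edgeR, adjusted p = 0.0333). Thus 3 of 8 members were called, all lower, where 9.07% of all genes tested were called in either direction. The median log2 fold change was -0.19 over the members and -0.002 over all genes tested.

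The remaining members gave values near 0 or missed the threshold. Lilrb4 had a log2 fold change of -0.25 (edgeR, adjusted p = 0.0643) and Fcer1g of -0.12 (adjusted p = 0.12). Fcgr2b had 0.14 (adjusted p = 0.186) and was higher in preserved cells in 4 of 4 animals, though by at most 1.13 times. The activating receptors Fcgr2a and Fcgr3a had -0.053 and -0.079. Without NC2, Sirpa and Fcgr1a lost their call (adjusted p = 0.0525 and 0.175), and without PC1 or PC2 Fcgr1a did (adjusted p = 0.0941 and 0.121), while Cd300a stayed called without any 1 animal. In the fit without the pairing of libraries by animal (no block) none of the 3 was called (adjusted p = 0.349 for Cd300a, 0.601 for Sirpa and 0.823 for Fcgr1a). Markers of basophils and mast cells were also lower after preservation over all barcodes. Their 6 genes summed to 39.2 to 69.2 CPM in fresh NC, 9.45 to 23.1 CPM in fresh PC, and 1.003 to 5.15 CPM in preserved libraries. In fresh cells this sum was lower in PC than in NC, while Cd300a was higher in PC. The part of these markers in the fall of Cd300a was not tested.

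Within gates, Cd300a was again the member with the most calls. It fell in the Clec4a3 gate (log2 fold change -0.93 ± 0.171, edgeR, adjusted p = 0.0111), the Vcan gate (-1.28 ± 0.300, edgeR, adjusted p = 0.0351), the Siglech gate (-1.17 ± 0.198, edgeR, adjusted p = 0.008) and the Ncr1 gate (-1.15 ± 0.226, edgeR, adjusted p = 0.00258). In the Clec4a3 gate the levels were 73.5 and 47.5 in NC1 and NC2 and 86.8 and 70.4 in PC1 and PC2 fresh, and 33.9 and 10.8 in NC1 and NC2 and 46.3 and 40.9 in PC1 and PC2 preserved (CPM). The same 4 gates were called as list gates, with log2 fold changes of -0.69 (edgeR, adjusted p = 0.0134), -0.97 (0.00165), -0.90 (0.019) and -1.36 (2.67e-05). In the Siglech list gate the mean level of Cd300a was 8.16 CPM, below the mean of 11.3 CPM in empty droplets. Its means in the Clec4a3, Vcan and Ncr1 list gates were above that of empty droplets. The Ncr1 list gate had 21.9 and 22.1 in NC1 and NC2 and 26.7 and 18.2 in PC1 and PC2 fresh, and 5.61 and 6.72 in NC1 and NC2 and 11.9 and 7.63 in PC1 and PC2 preserved, with no overlap between fresh and preserved libraries. In the Clec4f gates the values were -0.40 and, as list gate, -0.65, and did not pass (adjusted p = 0.699 and 0.0723). In empty droplets Cd300a was 12.5 and 10.2 in NC1 and NC2 and 17.8 and 21.4 in PC1 and PC2 fresh, and 4.15 and 2.04 in NC1 and NC2 and 10.6 and 11.3 in PC1 and PC2 preserved. The part of free RNA in these gate values was not tested.

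Leaving out 1 animal ended several of these Cd300a calls. Without PC1 or PC2 the single-gene Clec4a3 call was lost (adjusted p = 0.156 and 0.0965), in the Siglech gate it was lost without PC1 (0.0549) and in the Vcan gate without NC2 (0.0865), and without PC1 or PC2 Cd300a could not be tested there. In list gates it remained called in the Vcan and Ncr1 gates without any 1 animal, was lost in the Clec4a3 gate without PC2 (0.0836) and in the Siglech gate without NC2, PC1 or PC2 (0.094, 0.12499 and 0.0903). DESeq2 called Cd300a in no single-gene gate (adjusted p = 0.0524 in the Ncr1, 0.072 in the Clec4a3 and 0.618 in the Vcan gate), and in the fit without the block Cd300a was called in the Ncr1 list gate only (adjusted p = 0.0311).

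Beside Cd300a, 2 further values were called in the single-gene gates: Sirpa in the Ncr1 gate (log2 fold change -0.63 ± 0.147, edgeR, adjusted p = 0.0113) and Lilrb4 in the Cd79a gate (-0.55 ± 0.119, edgeR, adjusted p = 0.0182). The first was lost without NC2 or PC2 (adjusted p = 0.0643 and 0.172) and the second without PC1 or PC2 (0.104 and 0.102). Sirpa in the Ncr1 gate lay below empty droplets in 8 of 8 libraries and Lilrb4 in the Cd79a gate in 7 of 8. This gave 6 calls among 55 tests of a member in a gate, all lower, against 2.41% of tests over all genes and gates. Cd300a in the Cd79a gate had too few UMIs to be tested. In list gates 12 of 55 tests were called, all lower, against 3.86%. Apart from the 4 calls of Cd300a, the calls in list gates lay in the Siglech, Ncr1 and Cd79a gates: Sirpa, Lilrb4 and Fcgr1a fell in the Siglech and Ncr1 list gates by 0.45 and 0.46, 0.40 and 0.47, and 0.45 and 0.40 on the log2 scale, and Fcer1g fell by 0.30 in the Cd79a and 0.17 in the Siglech list gate. Of these 8 calls, that of Sirpa in the Ncr1 gate was also made in the single-gene gate. Lilrb4 in the Cd79a gate was no longer called as a list gate (-0.51, adjusted p = 0.117). In all 8 the level was below that of empty droplets in 8 of 8 libraries. Lilrb4 in the Ncr1 list gate, for instance, had a mean of 73.9 CPM against 311 CPM in empty droplets, and Fcer1g in the Cd79a list gate 1305 against 2834 CPM. In empty droplets themselves Sirpa, Lilrb4, Fcgr1a and Fcer1g were lower in the preserved than in the fresh library of 4 of 4 animals. The same held for Cd300a and for Fcgr2a and Fcgr3a, which had no call, while Fcgr2b was lower in NC1 and PC1 only. This fall is thus not particular to the genes called, and its share over all genes is not given. The part of free RNA in these calls was not tested. Of the 7 genes other than Cd300a, none was called in the Clec4f, Vcan or Clec4a3 gates of either kind (edgeR; unadjusted p under 0.05 in 8 of 42 such tests, and no call by DESeq2 in the single-gene gates).

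**Figure D4:**
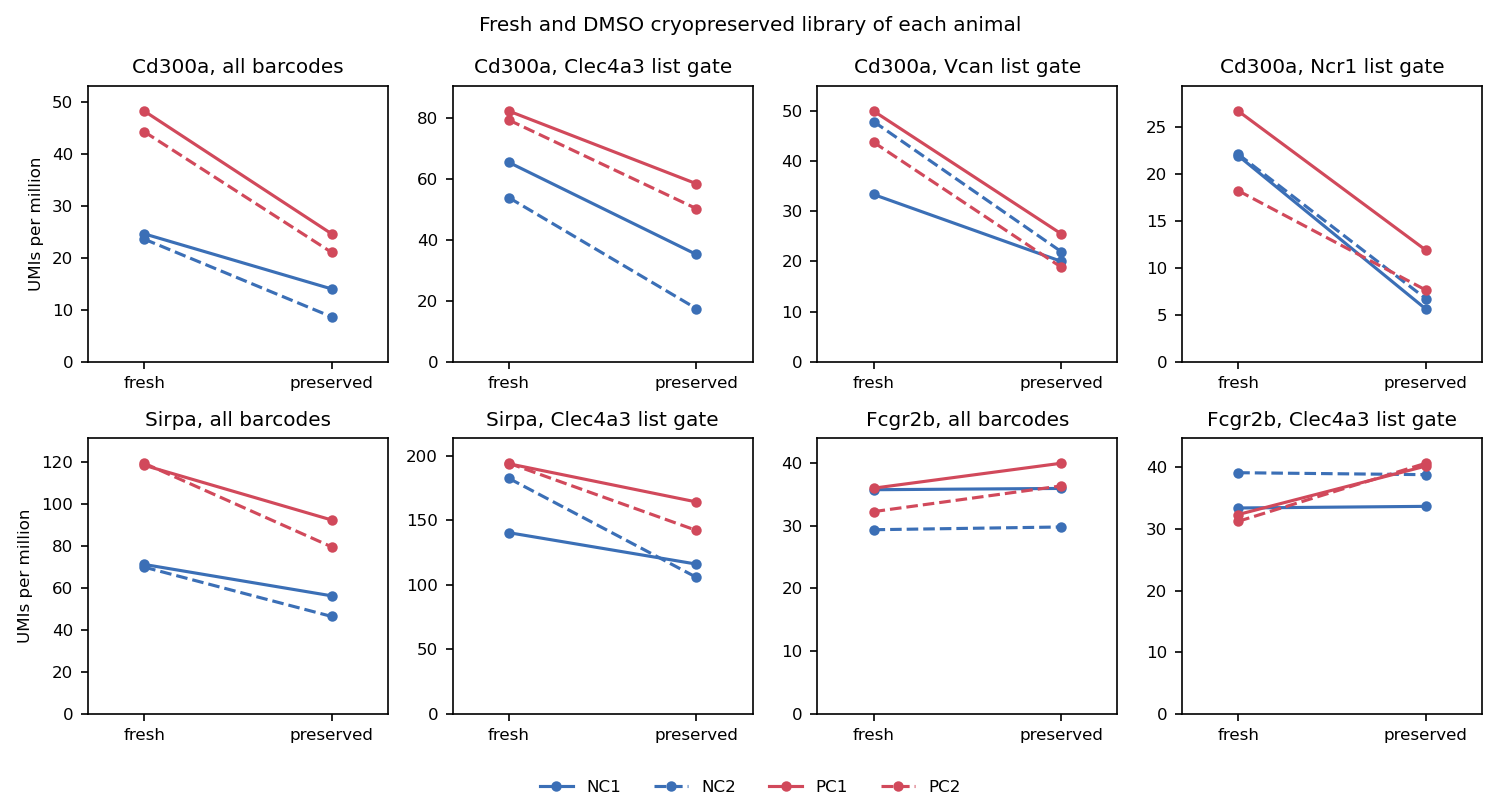
Levels in CPM of Cd300a, Sirpa and Fcgr2b in the fresh and the preserved library of each animal, over all barcodes or within a list gate; lines join the 2 libraries of an animal, blue for NC and red for PC, and each axis starts at 0. All 4 lines of Cd300a and Sirpa fall in the panels shown, and those of Fcgr2b over all barcodes are almost level.

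Between the diets, Lilrb4, Cd300a and Sirpa were higher over all barcodes of the fresh PC libraries, and Fcgr3a was lower in their Clec4a3 and Clec4f gates. This comparison of 2 animals on each diet asks how the choline-deficient diet alters the receptors. In simulated data the fits over all barcodes, most so between the diets, gave a larger share of false calls than the threshold set. Lilrb4 over all barcodes was 102 and 69.7 in NC1 and NC2 and 385 and 239 in PC1 and PC2 (CPM), a log2 fold change of 1.89 ± 0.275 (edgeR, adjusted p = 0.0486). Cd300a had 24.6 and 23.6 in NC1 and NC2 and 48.2 and 44.2 in PC1 and PC2, with 0.96 ± 0.115 (edgeR, adjusted p = 0.0346). Sirpa had 71.2 and 69.9 in NC1 and NC2 and 118 and 119 in PC1 and PC2, with 0.77 ± 0.100 (edgeR, adjusted p = 0.0434). Fcgr3a was 279.9 and 287 in NC1 and NC2 and 164 and 128 in PC1 and PC2. It missed the threshold over all barcodes (-0.94 ± 0.145, edgeR, adjusted p = 0.0528). Its groups did not overlap. With 2 libraries in each group, here and below, this is not set against the share over all genes and adds nothing to the test.

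The other activating receptors and the gamma chain also stood higher in the fresh PC libraries without passing the test. Log2 fold changes were 0.84 for Fcgr1a, 0.67 for Fcgr2a and 0.55 for Fcer1g (edgeR, adjusted p = 0.0758, 0.139 and 0.0644). Fcgr2b overlapped between the diets (log2 fold change 0.087). The median was 0.72 over the members. In all, 3 of 8 members were called, all higher, where 1.18% of all genes tested were called. Without PC1 or without PC2 none of the 3 was called (Lilrb4 adjusted p = 0.0755 and 0.0514, Cd300a 0.0948 and 0.134, Sirpa 0.111 and 0.219).  The Clec4a3 gate took 2.77 to 3.65% of barcodes in NC and 8.16 to 8.53% in PC fresh libraries, the Vcan gate 0.985 to 1.11% and 2.89 to 4.81%, and the Cd3e gate 9.79 to 11.2% and 2.04 to 4.71%. Their part in the pooled values was not tested.

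Within the myeloid gates, Fcgr3a was called lower in the Clec4a3 and Clec4f gates. In the Clec4a3 gate it was 779 and 1264 in NC1 and NC2 and 307 and 239.8 in PC1 and PC2 (CPM, fresh), and the groups did not overlap. The log2 fold change was -1.93 ± 0.233 (edgeR, adjusted p = 0.00632), and without any 1 animal it ranged from -2.25 to -1.49. Such fits leave 1 library in a diet group, so a call that remains in them, here or below, is a weak check. In the Clec4a3 list gate it was -1.66 ± 0.233 (edgeR, adjusted p = 0.0312). In the Clec4f gate the levels were 825 and 753 in NC1 and NC2 and 208 and 152 in PC1 and PC2, with a log2 fold change of -2.15 ± 0.187 (edgeR, adjusted p = 0.00262). The Clec4f list gate had 483 and 639 in NC1 and NC2 and 246 and 259 in PC1 and PC2 and -1.20 ± 0.188 (edgeR, adjusted p = 0.00392), but lost the call without PC2 (adjusted p = 0.11). The excess of Fcgr3a over the Cd3e list gate in the Clec4a3 list gate was 599 and 728 CPM in NC1 and NC2 and 242 and 127 CPM in PC1 and PC2. Empty droplets held 233 and 251 in NC1 and NC2 and 153 and 129.6 in PC1 and PC2 CPM. The mix of cells within a gate may also differ between the diets. Fcnb, a gene of the Vcan list, ranged from 336 to 937 CPM over the libraries of the Clec4a3 gate. Kupffer markers in the fresh single-gene Clec4f gate differed between the diets, with values given below for Fcgr2b. The part of this mix in the gate values of Fcgr3a and the other members was not tested.

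The share of barcodes with a UMI of Fcgr3a gave the same order. With each barcode thinned to 1000 UMIs, 43.8 and 56.6% of the barcodes in the Clec4a3 gate of fresh NC1 and NC2 held a UMI, and 20.2 and 19.4% of those of PC1 and PC2. In the Cd3e gate, where the gene is not expected, the thinned shares were 14.8 and 13.9% and 13.2 and 5.75%. Unthinned shares over the 8 libraries were 42.1 to 75.9% in the Clec4a3 gate and 19.2 to 38.2% in the Cd3e gate, at median depths of 2984 to 3956 and 3039.5 to 4245 UMIs. At most 15 barcodes of a library in the Clec4a3 gate and 46 in the Cd3e gate were left out as shallower.

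Lilrb4 moved the other way. In the Clec4f gate it was 106 and 81.4 in NC1 and NC2 and 435 and 292 in PC1 and PC2 (CPM, fresh), with a log2 fold change of 1.97 ± 0.263 (edgeR, adjusted p = 0.0186). In the Clec4f list gate it was 52.8 and 57.6 in NC1 and NC2 and 297 and 211 in PC1 and PC2. The log2 fold change was 2.15 ± 0.245 (edgeR, adjusted p = 0.000431), and the call remained without any 1 animal, a weak check. The Clec4a3 gate had 272 and 219 in NC1 and NC2 and 710.5 and 434 in PC1 and PC2. Its log2 fold change was 1.21 ± 0.225 (edgeR, adjusted p = 0.0479), and in the list gate 1.26 ± 0.232 (edgeR, adjusted p = 0.0638), which missed the threshold. It also missed it with the cell numbers of the study (0.0506) or with barcodes of at least 1000 UMIs (0.0547). In both kinds of Clec4f gate the level lay below that of empty droplets in 8 of 8 libraries, and in both kinds of Clec4a3 gate above it in 8 of 8. In the Vcan gates the groups gave 0.97 and, as list gate, 0.88 without a call.

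Lilrb4 was also called in lymphoid and Siglech gates, again below the level of free RNA in 8 of 8 libraries of each gate. The Cd3e and Siglech gates gave log2 fold changes of 1.75 and 1.88 (edgeR, adjusted p = 0.0293 and 0.0174), and the list gates 2.101 for Cd3e, 1.90 for Siglech and 1.81 for Cd79a (adjusted p = 0.0215, 0.0145 and 0.00103). Empty droplets of the same libraries were at 164 and 159 in NC1 and NC2 and 644 and 413 in PC1 and PC2 CPM, and the Cd3e list gate at 36.6 and 27.2 in NC1 and NC2 and 177 and 94.4 in PC1 and PC2 CPM. In the Clec4f list gate, Lilrb4 exceeded the Cd3e list gate by 16.3 and 30.3 CPM in NC1 and NC2 and by 119.7 and 117 CPM in PC1 and PC2. In the Clec4a3 list gate the excess was 241 and 198 CPM in NC and 581 and 352 CPM in PC. The part of free RNA in the Clec4f, Siglech and lymphoid values was not tested.

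Of the single-gene gates, 7 of 56 tests of a member were called between the diets in fresh cells, 4 higher and 3 lower, against 0.651% of tests over all genes and gates. The third fall of Fcgr3a was in the Ncr1 gate, 204 and 167 in NC1 and NC2 and 87.9 and 105 in PC1 and PC2 CPM, with a log2 fold change of -0.91 ± 0.164 (edgeR, adjusted p = 0.0489). The levels there were below those of empty droplets, and the call was lost without PC1 or PC2 (adjusted p = 0.321 and 0.648). In list gates 9 of 56 tests were called, 5 higher and 4 lower, against 1.55%. Among them were Fcgr3a in the Siglech list gate (-1.03, adjusted p = 0.0274) and Sirpa in the Clec4f list gate, 92.5 and 95.3 in NC1 and NC2 and 193 and 159 in PC1 and PC2 CPM (0.85, adjusted p = 0.0374). The Sirpa call was lost without any 1 of the 4 animals, with adjusted p between 0.085 and 0.155. The Fcgr3a call in the Siglech list gate was lost without PC2 (0.102), and its levels lay below those of empty droplets in 8 of 8 libraries.

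Fcgr2b was lower in PC in the Clec4f list gate. Among list gates this one had its highest mean, above the Vcan list gate in 5 of 8 libraries. Among single-gene gates its mean was higher in the Vcan and Cd79a gates than in the Clec4f gate. The log2 fold change of Fcgr2b in fresh cells of the Clec4f list gate was -0.997 ± 0.228 (edgeR, adjusted p = 0.0291), and the groups did not overlap. In preserved cells of the same animals the levels were 111 and 138 in NC1 and NC2 and 59.5 and 74.3 in PC1 and PC2 CPM. They did not overlap either, and the log2 fold change was -1.03 ± 0.220 (edgeR, adjusted p = 0.0177). The fresh call was lost without NC2, PC1 or PC2 (adjusted p = 0.142, 0.0934 and 0.194) and the preserved call without NC2 (0.0526). In the single-gene Clec4f gate the direction was the opposite and no call was made, with 0.94 in fresh and 0.39 in preserved cells (adjusted p = 0.387 and 0.868), so the fall depends on how this gate is set. The Kupffer markers summed to 6107 to 7511 CPM in NC and 2604 to 5946 CPM in PC in the fresh single-gene gate, and to 12196 to 17846 and 12585 to 13641 CPM in the list gate.

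In the preserved libraries the diets lay apart in the same direction for Fcgr3a, Lilrb4, Cd300a and Sirpa. Over all barcodes none of the 8 members was called by edgeR, against 0.642% of all genes tested. An unadjusted p under 0.05 was reached by 7, and DESeq2 called 5, counts given without the share of all genes. The smallest adjusted p in edgeR was that of Fcgr3a, 249 and 247 in NC1 and NC2 and 144 and 131 in PC1 and PC2 CPM (log2 fold change -0.88 ± 0.128, edgeR, adjusted p = 0.052). Lilrb4 was 99.9 and 57.5 in NC1 and NC2 and 275 and 180.4 in PC1 and PC2 CPM (log2 fold change 1.52 ± 0.303, edgeR, adjusted p = 0.101). Cd300a and Sirpa had log2 fold changes of 0.99 and 0.72 (adjusted p = 0.144 and 0.106).

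Within gates of the preserved libraries, from the same animals, Fcgr3a was also lower in PC. The Clec4a3 gate had 858 and 1204 in NC1 and NC2 and 306 and 336 in PC1 and PC2 CPM, with a log2 fold change of -1.74 ± 0.201 (edgeR, adjusted p = 0.00121), and the list gate -1.36 (adjusted p = 0.00759). Neither call was lost without any 1 animal, which is a weak check. In the Clec4f gate it was 398 and 676 in NC1 and NC2 and 205 and 139.5 in PC1 and PC2 CPM, with -1.70 ± 0.319 (edgeR, adjusted p = 0.0154). The Clec4f list gate gave -0.72 without a call (adjusted p = 0.124). Where a barcode needed only the gate gene, whatever else it held, the Clec4f value shrank to -0.26. The Vcan list gate gave -1.06 (adjusted p = 0.0191), a call lost without NC2 or PC2 (0.0943 and 0.308), at a level no higher than in the Cd3e list gate.

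Lilrb4 was higher in PC in the preserved Clec4a3 gate, 249.7 and 231 in NC1 and NC2 and 591 and 402 in PC1 and PC2 CPM (log2 fold change 0.99 ± 0.216, edgeR, adjusted p = 0.0475), a call lost without PC1 (0.303) and not made in the list gate (0.86, 0.0994). In the Clec4f list gate it was 61.0 and 28.6 in NC1 and NC2 and 264 and 144 in PC1 and PC2 CPM (2.08 ± 0.384, edgeR, adjusted p = 0.0072). The call remained without any 1 animal, a weak check. Empty droplets of these libraries held more, 161 and 152 in NC1 and NC2 and 476 and 323 in PC1 and PC2 CPM. In the Ncr1 gate Lilrb4 had 2.12 and Fcgr1a 1.17 (adjusted p = 0.011 and 0.0253), both lost without PC2 (0.247 and 0.804), and both at levels below those of empty droplets in 8 of 8 libraries. These made 5 calls among 55 tests in single-gene gates, 3 higher and 2 lower, against 0.706% over all genes and gates. List gates gave 12 calls among 54 tests, 9 higher and 3 lower, against 1.99%. Of the 9, 8 were in the Siglech, Cd79a, Cd3e and Ncr1 list gates: Lilrb4 in all 4 and Fcgr1a, Fcgr2a, Fcer1g and Sirpa in the Cd3e list gate, where log2 fold changes were 1.55, 1.11, 0.75 and 1.62. The levels of the last 4 genes in that gate were 0.180 to 0.535 times those of empty droplets, Lilrb4 lay below empty droplets in all 4 gates, and the part of free RNA was not tested.

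**Figure D5:**
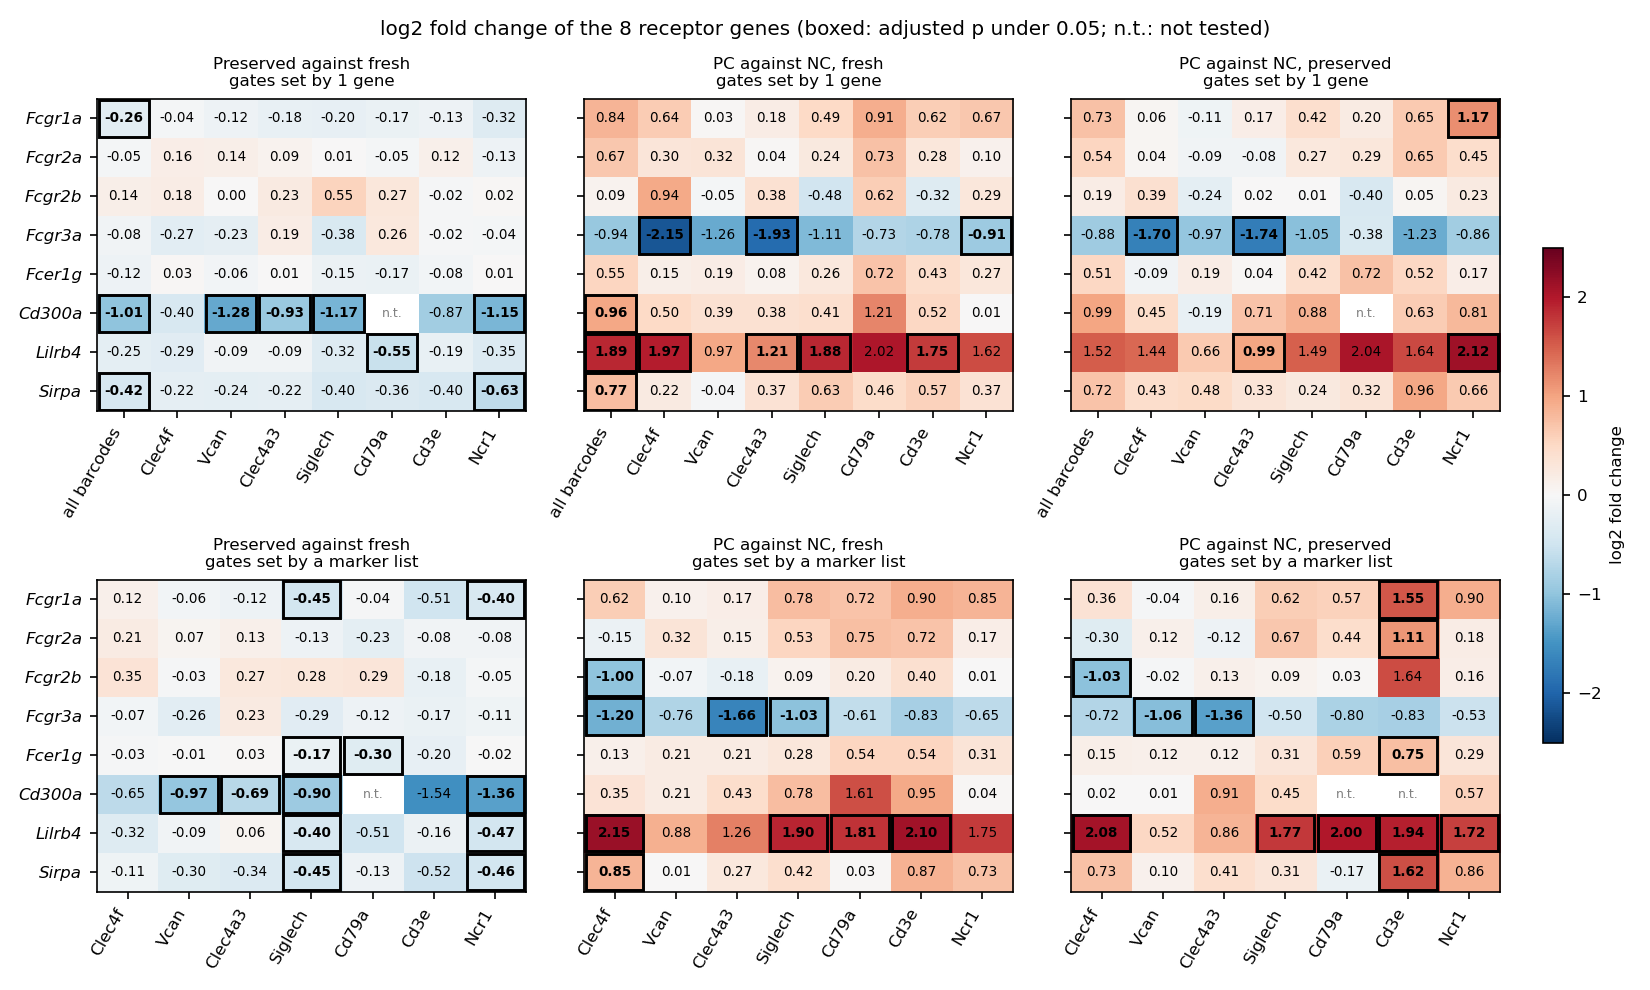
Log2 fold changes of the 8 genes for preserved against fresh cells and for PC against NC in fresh and in preserved cells, over all barcodes and in the 7 gates set by 1 gene (upper row) or by a marker list (lower row); colour and printed value give the change, and boxes mark an adjusted p under 0.05. Fcgr3a is negative and Lilrb4 positive in every gate for both diet comparisons, which share their animals. Cd300a is negative in every tested gate after preservation.

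The effect of preservation was not shown to depend on the diet. In a test of the difference between the diets, none of the 8 members was called by edgeR over all barcodes or in any gate of either kind. The background was 0.0329% of genes over all barcodes, 0.0976% of tests in single-gene gates and 0.0129% in list gates. An unadjusted p under 0.05 was reached by 1 of 8, 1 of 56 and 7 of 55 member tests, and DESeq2 called none. Lilrb4 had the smallest adjusted p over all barcodes, 0.71, with a difference of -0.33 on the log2 scale between the preservation effects in PC and NC. For Cd300a the difference was 0.066 ± 0.200.

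The ratio of the activating receptors (Fcgr1a, Fcgr2a and Fcgr3a together) to the inhibitory Fcgr2b was lower after preservation in 4 of 4 animals. Over all barcodes it was 18.8, 19.8, 18.3 and 23.1 in fresh NC1, NC2, PC1 and PC2. In the preserved libraries it was 17.8, 16.5, 15.0 and 17.9. The mean log2 difference was -0.25 ± 0.123 (SD, n = 4 animals). No test of the ratio is given, since it combines members chosen with their values known. Among single-gene gates, those with at least 20 UMIs of Fcgr2b in every library were used, which left the Siglech gate (-0.79 ± 0.373, lower in 4 of 4 animals). In list gates the difference was -0.24 ± 0.158 in the Clec4f, -0.16 ± 0.209 in the Clec4a3, -0.57 ± 0.272 in the Siglech and 0.058 ± 0.252 in the Vcan gate, with the ratio lower in 4, 3, 4 and 2 of 4 animals. In both kinds of Siglech gate the mean levels of all 4 genes of the ratio were below those of empty droplets. In the single-gene Siglech gate Fcgr2a had 224 against 260 CPM and Fcgr3a 167 against 184 CPM. Fcgr1a had 89.9 against 115 CPM and Fcgr2b 28.3 against 40.0 CPM. The part of free RNA in these ratios was not tested. The fresh ratio itself was highest in the Clec4a3 list gate, at 37.2 to 51.5. It was 10.2 to 15.8 in the Vcan and 14.0 to 24.7 in the Clec4f list gate. Fcgr2b, by which the ratio is divided, had a mean of 36.2 CPM in the Clec4a3 list gate, against 40.0 CPM in empty droplets. The part of free RNA in this order of gates was not tested.

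Genes that act with these receptors were described as 4 lists. Of 19 tested genes of activating signalling, such as Syk, Lyn and Vav1, preservation lowered 6 and raised 1 over all barcodes, where 9.07% of all genes tested were called, with a list median of -0.21 on the log2 scale. The kinase Fgr fell (edgeR, -0.32, adjusted p = 0.00617) and the adaptor of B cell signalling Blnk rose (0.45, adjusted p = 0.00292). In single-gene gates 3 of 101 tests of this list fell after preservation and 1 rose, against 2.41% of tests over all genes. In list gates 7 of 107 fell and 2 rose, against 3.86%. Between the diets over all barcodes 1 gene of this list, the kinase Fgr, rose in fresh cells (edgeR, 0.70, adjusted p = 0.047). None was called in preserved cells, with medians of 0.29 and 0.092. Over all genes tested, 1.18% were called in fresh and 0.642% in preserved cells. None of the 8 tested inhibitory phosphatases and adaptors, among them Ptpn6 and Inpp5d, was called over all barcodes in these 3 comparisons (edgeR, the test run on the lists). Their medians were -0.029 for preservation and 0.065 and -0.039 for the diets, and 10 of these 24 tests had an unadjusted p under 0.05. Of all genes, 9.07%, 1.18% and 0.642% were called in the 3 comparisons in turn. No call in 24 tests therefore does not set this list apart from other genes. Within gates Sit1, an adaptor of lymphocytes, was lower in PC in the preserved Ncr1 gate (-1.70, adjusted p = 0.0487), the only call of this list in single-gene gates. In list gates Sit1 was lower in PC in the fresh Siglech (-1.66, adjusted p = 0.0354) and the preserved Ncr1 gate (-1.84, adjusted p = 0.016). After preservation Ptpn6 rose (0.29, adjusted p = 0.0106) and Ptpn11 fell (-0.55, adjusted p = 0.00759) in the Siglech list gate. The list gate calls were named after their values were seen.

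Of the other Fc receptors, 8 were tested for preservation over all barcodes, with a median of -0.052, where 9.07% of all genes tested were called. Trim21, a cytosolic receptor for antibodies, fell (-0.41, adjusted p = 0.015) and Fcrla, an Fc receptor-like protein of B cells, rose (0.20, adjusted p = 0.0447). Fcer1a, the alpha chain of the IgE receptor, fell (-4.84, adjusted p = 0.00437). It is among the basophil and mast cell markers whose sum is given above with Cd300a. None of this list was called between the diets over all barcodes (edgeR, unadjusted p under 0.05 in 4 of 16 tests). Medians were -0.50 in fresh and -0.44 in preserved cells, where 1.18% and 0.642% of all genes tested were called. Within gates Fcgrt, the neonatal Fc receptor, was lower in PC in the preserved Clec4f gate (edgeR, -1.86, adjusted p = 0.00606). Of 23 tested paired receptors, adaptors and ligands, 4 rose in fresh PC libraries over all barcodes and none fell, against 1.18% of all genes called in either direction: Cd300lf, a relative of Cd300a (2.81, adjusted p = 0.0343), Trem2, a lipid receptor of macrophages (4.37, adjusted p = 0.0388), Clec4a1 (0.82, adjusted p = 0.0442) and Clec4a2 (0.75, adjusted p = 0.047), the last named after its values were seen. In preserved libraries Trem2 alone was called (edgeR, 4.65, adjusted p = 0.0191), against 0.642% of all genes tested. The list medians were 0.64 and 0.20, against -0.019 and -0.027 over all genes tested. In single-gene gates 3 tests of 96 in fresh and 5 of 88 in preserved libraries were called, all of them rises of Trem2 (0.651% and 0.706% of tests over all genes). They lay in the Clec4a3, Ncr1 and Siglech gates of fresh cells. In preserved cells they lay in the same gates and in the Clec4f and Cd3e gates. Trem2 was not compared with its level in empty droplets, and the part of free RNA in these rises was not tested. In list gates 10 tests rose and 2 fell of 107 in fresh libraries, and 14 rose and 5 fell of 105 in preserved libraries (1.55% and 1.99%). The falls lay in the Clec4f and Vcan list gates: Siglec1 and Trem1 in the fresh Clec4f gate, Trem1, Lilrb3l, Hcst and Cd300le in the preserved Clec4f gate, and Lilrb3l in the preserved Vcan gate, all named after their values were seen. Over all barcodes preservation lowered Clec4a1 (edgeR, -0.24, adjusted p = 0.0226) and Cd300le (-0.79, adjusted p = 0.0279). It raised Cd200 (0.30, adjusted p = 0.0203), the ligand of an inhibitory myeloid receptor. The list median was -0.10, and 9.07% of all genes tested were called. Cd300le, another relative of Cd300a, fell in the Clec4a3 gate (-0.82, adjusted p = 0.0436) and the Vcan gate (-0.80, adjusted p = 0.0268), next to Cd300a.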

How the data were processed

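Immune cells of 4 rats were profiled fresh and after cryopreservation, in 8 libraries of the Chromium 3′ kit. The authors aligned reads to rat Rnor6.0 with Ensembl annotation in Cell Ranger (2.1.1) and deposited unfiltered counts of UMIs per gene and barcode, in which PCR copies are already collapsed. Here barcodes with at least 500 UMIs were kept, which left 52 to 264 more per library than the cells the study used. Doublets were neither called nor removed, and the 3% largest barcodes were left out as an alternative. Counts were summed per library and gate, with 7 gates set by 1 gene each. Between 18338700 and 26471843 UMIs per library set the precision, and a gate with fewer than 20 barcodes in any library was not tested.

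For the sums, edgeR (4.0.16, in R 4.3.3) gave quasi-likelihood tests after TMM scaling and the filterByExpr filter, with Benjamini-Hochberg adjustment over all genes of each fit and calls at an adjusted p under 0.05. Preservation and its difference between diets were fitted with the animal as a block, as the 2 libraries of a number come from the same animal; differences between animals correlated between fresh and preserved libraries (r = 0.579 in NC and 0.649 in PC, over 6127 genes). Diets were compared within fresh and within preserved libraries. A fold change of a gene absent from 1 group depends on the prior count. The fit was tested on simulated data with known changes, in which the share of false calls over all barcodes was above the threshold set, most so between the diets. DESeq2 (1.42.0), other filters, gates, barcode limits and leaving out each animal were alternatives. Counts of tests with an unadjusted p under 0.05, and of calls by DESeq2, stand without the share over all genes. They are no result about the members. Levels, ratios and correlations came from Python (3.11.15) with scipy (1.17.1), pandas (2.3.3) and numpy (2.4.6).

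The members, gene lists and tests were chosen with earlier results of these data known. Gates set by marker lists were added after the data were seen: a barcode went to the list with the highest mean score, limited to -2 to 5, of at least 0.5 and 0.5 above every other lineage. Named genes are the 8 members, up to 3 called genes with the smallest p of each list and comparison, and the 3 genes most like each member; a gene that the rule names among the lists is not reported here. Of the marker and pathway lists, genes without a matching name were not used here.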

Additional observations from a re-analysis of the deposited data

How the results depend on the processing

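Of 557 log2 fold changes recomputed under up to 19 alternatives, 440 kept their direction and side of the threshold, 84 lost the call, 32 gained it and 1 reversed: Fcgr2b between the diets over all fresh barcodes became -0.033 without NC replicate 2, and 0.217 without NC replicate 1. Of 336 mean levels by gate, 59 moved by more than the spread between libraries, all under another gate. The fold changes compared were those of all members over all barcodes and, in gates, only of members called in the full fit. A value in a gate could therefore lose its call but not gain one. The fold changes and the numbers of calls below do not cover the same tests.

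For preservation over all barcodes, 3 members were called, but 0 in the fit without the replicate block, 1 with a 2-fold minimum and 1 to 4 when an animal was left out. In gates the 6 calls became 0 with DESeq2, 0 without the block, 11 with no filter on low counts, 23 with the gate gene alone, 12 with list gates, 1 with list gates and no block, and 3 with a 2-fold minimum. Leaving out an animal gave 3 to 10 calls, and 6 to 15 in list gates.

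For the diets in fresh cells, the 3 calls over all barcodes became 7 with DESeq2, 6 with no filter and 1 with a 2-fold minimum, and 0 to 7 without an animal. In gates the 7 calls became 14 with no filter and 14 with the gate gene alone, 9 to 16 without an animal, and 10 to 22 without an animal in list gates. In preserved cells the 0 calls over all barcodes became 5 with DESeq2, 1 each with the cell number of the study, with barcodes of at least 1000 UMIs and under 20% mitochondrial UMIs, and without the 3% largest barcodes, and 0 to 6 without an animal. In gates the 5 calls became 9 with DESeq2, 15 with no filter, 10 with the gate gene alone and 12 with list gates, 8 to 16 without an animal, and 10 to 21 without an animal in list gates (18 without PC2). For the difference of the preservation effect between diets, gates gave 0 calls, and 0 to 1 without an animal. All 8 genes were highest in a myeloid gate, and 7 to 8 of them without an animal. The cause of these moves was not tested. Except for list gates with all animals, the share of all genes called under an alternative is not given beside its count. These counts therefore do not set the members apart from other genes.

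Fits without an animal leave 1 library in a diet group, which is assumed to vary like the other group, and they called more members than the full fits in most cases, so a call that remained there is a weak check. With at least 2 UMIs of the gate gene, the Clec4f and Vcan gates, and the Clec4a3 gate other than between diets in fresh cells, could not be fitted. DESeq2 gave no adjusted p for Cd300a in the Siglech gate and Lilrb4 in the Cd79a gate. Few UMIs of Cd300a and Fcgr2b limit the gates.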
